A study of Mus musculus with 2 samples.

Results

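The genes described here were 7 matrix metalloproteinase genes (Mmp2, Mmp3, Mmp9, Mmp10, Mmp11, Mmp13 and Mmp14) and 3 genes of their tissue inhibitors (Timp1, Timp2 and Timp3), of 14450 mouse genes with an assigned sequence tag. They were chosen by family, as the metalloproteinase and inhibitor genes of stromal cells, and not by a measured value. The study profiled a pair of immortalised mouse male germ cell lines. GC-1spg came from type B spermatogonia of a mouse aged 10 days, was transformed with the plasmid pSV3-neo, and is labelled as a stage past the type B spermatogonium and before the primary spermatocyte. GC-2spd (ts) came from spermatocytes of a mouse aged 6 weeks, was transformed with SV40 large T antigen, no longer differentiates, and is labelled premeiotic. Both were grown in DMEM with 10% fetal bovine serum and 1.5 g/L sodium bicarbonate. Each line gave 1 library, so no difference had a replicate check, every test compared a pair of libraries and not the conditions, and line, donor age, transformation and culture cannot be told apart.

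Matrix metalloproteinases are zinc enzymes that are secreted or anchored at the cell surface as inactive proenzymes and cut collagens, basement membrane proteins, other proteinases and growth factor carriers once their propeptide is removed. Tissue inhibitors of metalloproteinases bind the active site and block it, and TIMP2 also links pro-MMP2 to MMP14 on the cell surface, where a free MMP14 molecule can activate it. In the testis these proteins are known from the remodelling of the basement membrane and of the junctions between Sertoli and germ cells.

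Digital gene expression profiling reads 1 tag of 21 bases per captured transcript, starting at a CATG (the NlaIII site). A level here is the number of tags per 1000000 clean tags (TPM), so gene length does not enter it. Tags shared between genes were left out, which lowers the level of a gene with such tags, Timp3 above all, when it is set beside another gene. The libraries held 5072149 (GC-1spg) and 4726808 (GC-2spd (ts)) clean tags, which makes 1 copy worth 0.197 and 0.212 TPM. Tags seen once had been removed before deposit, so a gene that was not listed may still have had single copies. Of the clean tags, 54.67% and 57.93% were on the sense strand of 1 gene, and these were counted.

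By their unambiguous tags, 8 of the 10 genes were read mainly at the last CATG before the 3′ end of a transcript, all but Timp2 and Timp3. The last CATG of Timp3 gives a tag shared with the other strand of another gene. The tags below are the most copied ones of the genes on which the results turn, with the CATG in capitals, and for Timp3 both the main tag, which is shared, and the unshared tag with the most copies over both libraries are shown. Coordinates are those of GRCm38, and each sequence is written in the direction of the transcript.
Mmp2, 3′ UTR, exon 13, chr8:92853373-92853393, plus strand: CATGggaaatggcaaacaagt
Mmp14, coding sequence, exon 10, chr14:54440616-54440636, plus strand: CATGggacgcccaagcgactg
Mmp3, 3′ UTR, exon 10, chr9:7455778-7455798, plus strand: CATGtgctatggcagaaccaa
Timp1, coding sequence, chrX:20873112-20873132, plus strand: CATGgaaagcctctgtggata
Timp2, distal site, 3′ UTR, exon 5, chr11:118301217-118301237, minus strand: CATGtgcgtgctggaatatga
Timp3, shared with the other strand of Syn3, 3′ UTR, exon 5, chr10:86349389-86349409, plus strand: CATGttatttatgaattttat
Timp3, not shared, 3′ UTR, exon 5, chr10:86347319-86347339, plus strand: CATGattggttactgagggag
Timp2 had a further main tag, at a proximal site, that holds the letters of the canonical polyadenylation signal, and these are in capitals in place of the CATG.
Timp2, proximal site, 3′ UTR, exon 5, chr11:118303593-118303613, minus strand: catgAATAAAacatcaatcat

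By the tags that could be assigned, inhibitor transcripts outnumbered metalloproteinase transcripts in both libraries, and the excess was smaller in GC-2spd (ts), where Mmp2 and Mmp14 were higher. Mmp3 was lower in GC-2spd (ts). Timp2 was the most copied of the 10 genes in both libraries and differed little between them. A gene was called different where its false discovery rate (FDR, two-sided Audic-Claverie test, Benjamini-Hochberg adjustment over all 14450 genes) was at most 0.001 and its log2 ratio was at least 1 in size. By this rule 19.5% of all genes were called, 11.7% as higher and 7.84% as lower in GC-2spd (ts). Of the 10 genes described, 3 were called, 2 as higher and 1 as lower, and with so few genes nothing particular to them is read from that count. The median log2 ratio, GC-2spd (ts) over GC-1spg with 0.5 tags added to both counts, was -0.52 for the 7 metalloproteinases, -0.07 for the 3 inhibitors and 0.13 for all genes. The calls are for counting error: when an edgeR exact test assumed a biological coefficient of variation of 0.4 between cultures, 0 of the 10 genes were called, and 4 had an unadjusted p under 0.05.

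**Figure D1:**
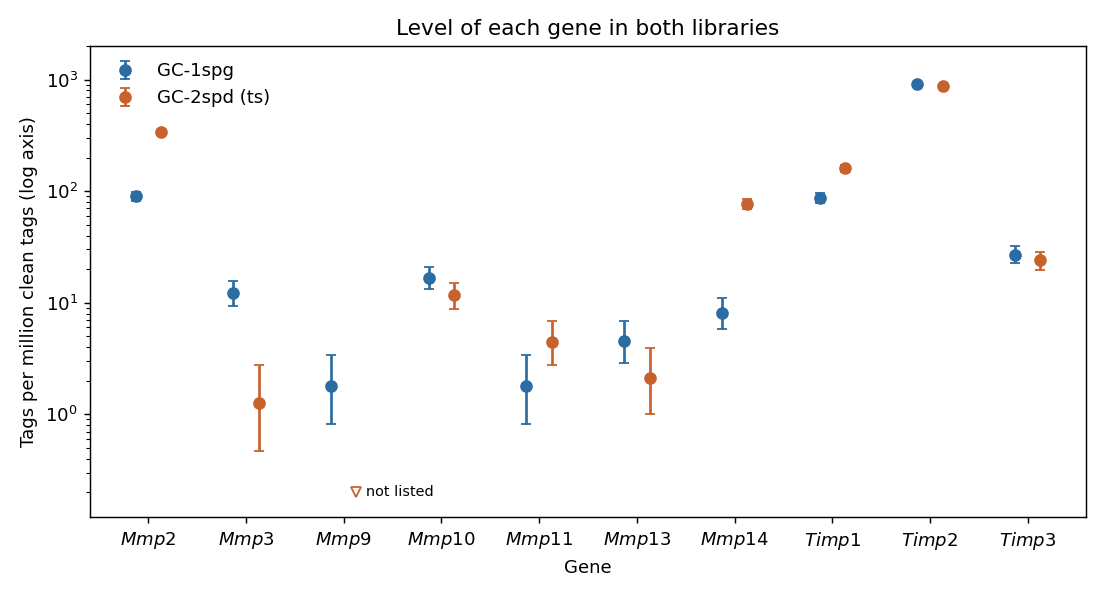
Level of each gene (tags per 1000000 clean tags, log axis) in GC-1spg and GC-2spd (ts), 1 library each, with exact 95% Poisson intervals that cover counting error alone; for the largest counts they are smaller than the points. Mmp2 rose from 89.5 to 336 TPM and Mmp14 from 8.08 to 76.8 TPM, while Mmp3 fell from 12.2 to 1.27 TPM, and the open triangle marks Mmp9, which was not listed in GC-2spd (ts).

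Mmp2 encodes gelatinase A, a secreted enzyme that cuts denatured collagens and basement membrane collagen. Its tags numbered 454 in GC-1spg against 1586 in GC-2spd (ts), which is 89.5 TPM (95% Poisson interval 81.5 to 98.1) and 336 TPM (319 to 352). The log2 ratio was 1.91 (95% interval 1.75 to 2.06, FDR 3.78e-162). Mmp2 moved from rank 1303 to rank 236 among all genes ordered by tags. It made up 66.5% of the tags of the 7 metalloproteinases in GC-1spg against 77.7% in GC-2spd (ts). The tag printed above held 98.7% and 98.5% of its copies, a difference that did not pass the threshold (adjusted p = 1, Fisher's exact test over 6 genes). Mmp2 was called under 12 of 13 alternatives and its log2 ratio stayed between 1.73 and 1.91.

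Mmp9, the other gelatinase (gelatinase B), was at the limit of detection. It had 9 tags in GC-1spg, or 1.77 TPM, and was not listed in GC-2spd (ts). Allowing for removed single copies, the upper limit in GC-2spd (ts) was 1.33 TPM, which lies within the GC-1spg interval (0.811 to 3.37 TPM). It was not called (FDR 0.00717).

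Mmp14 encodes the membrane-anchored metalloproteinase MT1-MMP, which cuts fibrillar collagen at the cell surface and activates pro-MMP2. It had 41 tags in GC-1spg against 363 in GC-2spd (ts), or 8.08 TPM (5.80 to 10.97) and 76.8 TPM (69.1 to 85.1). This was a 9.50-fold rise, with a log2 ratio of 3.25 (2.78 to 3.75, FDR 6.30e-69). Among all genes it moved from rank 7304 to rank 1777, and its share of the metalloproteinase tags went from 6.00% to 17.8%. Its main tag lies 650 bases before the annotated end of the transcript, in the last exon, and held 33 of 41 tags (80.5%) and 338 of 363 tags (93.1%). This share differed between the libraries (adjusted p = 0.0345, Fisher's exact test). Another annotated Mmp14 transcript has its last CATG in a tag shared with 671 other genes, which could not be assigned. When each gene was represented by its longest transcript alone, the main tag was not among the Mmp14 sites. Then 6 and 12 tags remained for Mmp14 and it was not called (log2 ratio 1.10, FDR 0.290). This alternative therefore says nothing of the difference at the main tag.

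Mmp3, Mmp10 and Mmp13 lie within 237727 bases of chromosome 9 (7272514 to 7510240), and each had fewer tags in GC-2spd (ts). Mmp3 encodes stromelysin 1, a broad proteinase that cuts proteoglycans, laminin and other pro-metalloproteinases. Its single tag was counted 62 times in GC-1spg against 6 times in GC-2spd (ts), or 12.2 TPM (9.37 to 15.7) and 1.27 TPM (0.466 to 2.76). Mmp3 was 9.63-fold lower in GC-2spd (ts), with a log2 ratio of -3.27 (-4.77 to -2.06, FDR 2.32e-11). Mmp10 encodes stromelysin 2 and was counted 85 and 55 times, at a log2 ratio of -0.53 (-1.04 to -0.02, FDR 0.0687). Mmp13 encodes the main rodent interstitial collagenase, collagenase 3, and was counted 23 and 10 times, at a log2 ratio of -1.10 (-2.33 to 0.03, FDR 0.0789). The difference was called for Mmp3 and for neither Mmp10 nor Mmp13. The intervals of Mmp3 and Mmp13 overlapped, while those of Mmp3 and Mmp10 did not.

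The promoters of these genes held a sequence feature that the choice of genes did not use. AP-1, the dimer of Fos and Jun proteins, is known to bind TGANTCA, and these letters were searched in windows from 250 bases before to 50 bases after the transcription start (RefSeq, GRCm38.p6). The motif equals its own reverse complement, so both strands are searched at once. Windows were at hand for 8 of the 10 genes, all but Mmp2 and Mmp9. The letters were in 3 of the 8, those of Mmp3, Mmp10 and Mmp13, where they lie 46, 63 and 35 bases before the start site, against 8.97% of 27025 genes and 7.81% of 32851 windows. The matches are shown with the motif in capitals, since they set the chromosome 9 genes apart from the 5 other genes with a window.
Mmp3, chr9:7445765-7445793, plus strand: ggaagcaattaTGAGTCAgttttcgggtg
Mmp10, chr9:7502268-7502296, plus strand: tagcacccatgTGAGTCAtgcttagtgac
Mmp13, chr9:7272468-7272496, plus strand: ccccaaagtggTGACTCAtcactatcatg
The windows of Mmp11, Mmp14, Timp1, Timp2 and Timp3 held none. The genes with a match lie close together and are of the same family, so their matches are not taken as independent cases. A match is a description of the letters and not evidence that a factor was bound.

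Mmp11 encodes stromelysin 3, which is activated inside the cell and is known from stroma around carcinomas. It had 9 tags in GC-1spg against 21 in GC-2spd (ts), or 1.77 and 4.44 TPM. Its log2 ratio of 1.32 (0.14 to 2.63) did not pass the threshold (FDR 0.0546).

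**Figure D2:**
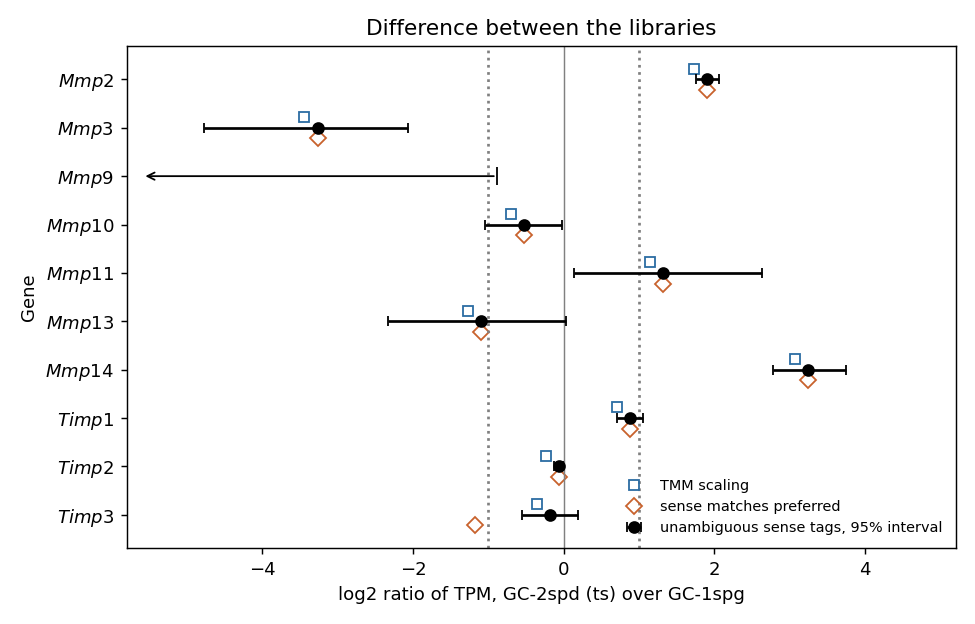
The log2 ratio of TPM, GC-2spd (ts) over GC-1spg, for each gene (black points with exact 95% intervals, counting error alone), with TMM scaling (squares) and with sense matches preferred over antisense ones (diamonds). Dotted lines mark a log2 ratio of 1 in size, the arrow for Mmp9 starts at the upper bound of its exact interval, which takes no account of removed single copies, and Timp3 is the gene whose value moves past a dotted line, from -0.18 to -1.18.

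Of the inhibitors, Timp1, which encodes a secreted inhibitor with weak action on MMP14, was higher in GC-2spd (ts) by less than the size set for a call. It had 440 tags in GC-1spg against 754 in GC-2spd (ts), or 86.7 TPM (78.8 to 95.2) and 160 TPM (148 to 171). The log2 ratio was 0.88 (0.71 to 1.05), with an FDR of 7.99e-24 that lay far under the threshold. Timp1 stayed uncalled under all 13 alternatives, with log2 ratios from 0.71 to 0.91. Its main tag held 96.1% and 98.0% of its sense copies (adjusted p = 0.0947, Fisher's exact test). With 36 and 30 antisense tags added to the total, the main tag held 88.9% and 94.3% (adjusted p = 0.00287, Fisher's exact test).

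Timp2 encodes the inhibitor that takes part in the activation of pro-MMP2 by MMP14. It was among the most abundant transcripts of both libraries, at rank 46 in GC-1spg against 55 in GC-2spd (ts). Its 4660 and 4149 tags were 919 TPM (893 to 946) and 878 TPM (851 to 905), with a log2 ratio of -0.07 (-0.13 to -0.01, FDR 0.0656). The intervals of both levels overlapped and Timp2 was not called under any of 13 alternatives.

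Timp2 transcripts were read at a pair of sites, which together held 94.1% and 94.6% of its tags. The distal site lies 169 bases before the annotated end and had 2121 tags in GC-1spg against 1820 in GC-2spd (ts). The proximal site lies 2545 bases before the end, holds the letters AATAAA within the tag itself, and had 2262 and 2103 tags. There were 1.07 proximal tags per distal tag in GC-1spg against 1.16 in GC-2spd (ts). The proximal site held 48.5% (95% exact interval 47.1 to 49.99) and 50.7% (49.2 to 52.2) of all Timp2 sense tags. This difference did not pass the threshold (adjusted p = 0.0896, Fisher's exact test over 6 genes). With both strands counted, the same proximal tags were 42.0% and 47.8% of the total (adjusted p = 1.05e-07, Fisher's exact test). Only the 723 and 252 antisense tags were added to the total there, so that result does not show a change between the sense sites.

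Timp3 encodes the inhibitor that is bound to the matrix and also blocks ADAM proteinases, and its result turned on which tags were counted. The gene lies inside Syn3, a synapsin gene on the other strand of chromosome 10, and most of its tags matched Timp3 in sense and Syn3 in antisense. With the shared tags left out, 137 tags in GC-1spg against 113 in GC-2spd (ts) were counted, or 27.0 TPM (22.7 to 31.9) and 23.9 TPM (19.7 to 28.7). The log2 ratio was then -0.18 (-0.55 to 0.19, FDR 0.443). The tags shared with Syn3 alone numbered 3875 and 1534, while Syn3 itself had 2 unambiguous sense tags in GC-1spg against was not listed in GC-2spd (ts). When a sense match was preferred over an antisense match, Timp3 had 4012 and 1647 tags, or 791 and 348 TPM, and was 2.27-fold lower in GC-2spd (ts) (log2 ratio -1.18, -1.27 to -1.10, FDR 9.53e-187), which was a call. With the site nearest the 3′ end alone, 3570 and 1326 tags gave a log2 ratio of -1.33 (FDR 7.32e-199), also a call.

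The lower count of Timp3 in GC-2spd (ts) was not the same at all sites. The shared tag nearest the 3′ end had 3563 and 1316 copies, with a log2 ratio of -1.34 (-1.43 to -1.24). The other tags shared with Syn3 had 312 and 218 copies, with a log2 ratio of -0.42 (-0.67 to -0.16). With all sense tags counted, the tag nearest the 3′ end held 88.8% (87.8 to 89.8) of the copies in GC-1spg and 79.9% (77.9 to 81.8) in GC-2spd (ts) (adjusted p = 7.18e-17, Fisher's exact test). Among the unshared tags, the one printed above had 37 copies in GC-1spg against 51 in GC-2spd (ts), and its share went from 27.0% to 45.1% (adjusted p = 0.0205, Fisher's exact test). The unshared tags did not all go in the same direction. The most copied one in GC-1spg, in the coding sequence, had 54 copies there against 11 in GC-2spd (ts), and another in the 3′ UTR had 36 and 39. With both strands counted the most copied Timp3 tag was an antisense one, whose share did not pass (adjusted p = 0.111, Fisher's exact test).

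**Figure D3:**
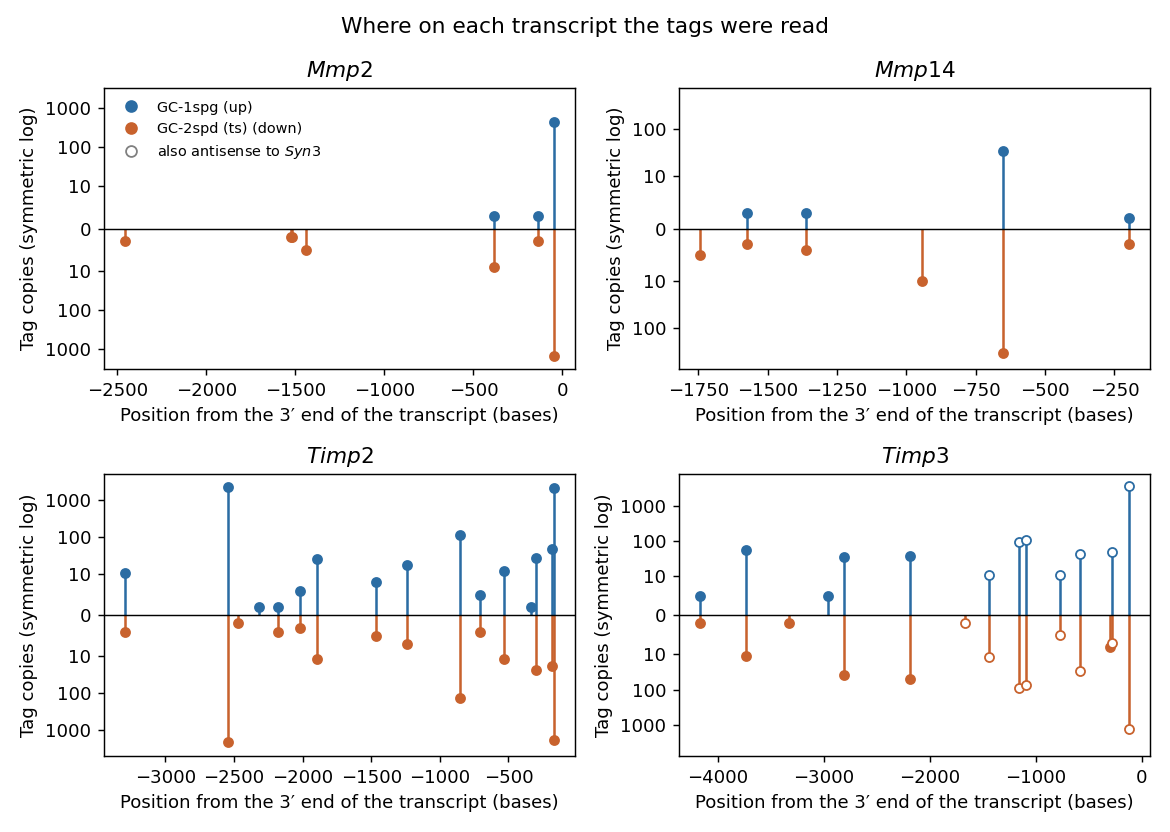
Tag copies (symmetric log axis, GC-1spg upward and GC-2spd (ts) downward) by distance in bases from the 3′ end of the transcript, for Mmp2, Mmp14, Timp2 and Timp3; open points are Timp3 tags that also match the other strand of Syn3. Mmp2 and Mmp14 have 1 dominant site each, Timp2 has a site 169 and a site 2545 bases from the end at similar heights, and the tallest Timp3 site, with 3563 and 1316 copies, is a shared one.

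By unambiguous sense tags, the order of the levels in GC-1spg was Timp2, Mmp2, Timp1, Timp3, Mmp10, Mmp3, Mmp14, Mmp13, Mmp11 and Mmp9. Mmp2 and Timp1 could not be told apart there (ratio 1.03, 0.903 to 1.18), nor could Mmp10 and Mmp3 (1.37, 0.977 to 1.93) or Mmp11 and Mmp9. In GC-2spd (ts) the order was Timp2, Mmp2, Timp1, Mmp14, Timp3, Mmp10, Mmp11, Mmp13, Mmp3 and Mmp9. Mmp2 then stood 2.10-fold (1.93 to 2.30) above Timp1, while Mmp11 could not be told apart from Mmp13, nor Mmp13 from Mmp3. With sense matches preferred, Timp3 stood next below Timp2 in both libraries, with a count close to that of Mmp2 in GC-2spd (ts) (1647 and 1586 tags).

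Summed over the genes, the metalloproteinases had 683 tags in GC-1spg against 2041 in GC-2spd (ts), or 135 TPM (125 to 145) and 432 TPM (413 to 451), a 3.21-fold rise (2.94 to 3.50). The inhibitors had 5237 and 5016 tags, or 1033 TPM (1005 to 1061) and 1061 TPM (1032 to 1091), a ratio of 1.03 (0.989 to 1.07) that did not differ from 1 beyond counting error. This ratio turned with the counting: the inhibitors had 9116 and 6552 tags with sense matches preferred, a log2 ratio of -0.37, and their log2 ratio was -0.56 with the site nearest the 3′ end alone and -0.13 with TMM scaling. There were 7.67 inhibitor tags per metalloproteinase tag in GC-1spg (7.08 to 8.32) and 2.46 in GC-2spd (ts) (2.33 to 2.59). With sense matches preferred, the Timp3 tags joined the sum and the ratios were 13.3 (12.3 to 14.4) and 3.21 (3.05 to 3.38). The ratio was thus lower in GC-2spd (ts) under both ways of counting, and being taken within a library it does not depend on how the libraries are scaled. Neither way counted the Mmp14 tag shared with 671 other genes, so the metalloproteinase sums may be too low by an unknown amount. The intervals do not cover this. Timp2 made up 89.0% and 82.7% of the inhibitor tags, or 51.2% and 63.4% with sense matches preferred, when Timp3 made up 44.0% and 25.1%.

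**Figure D4:**
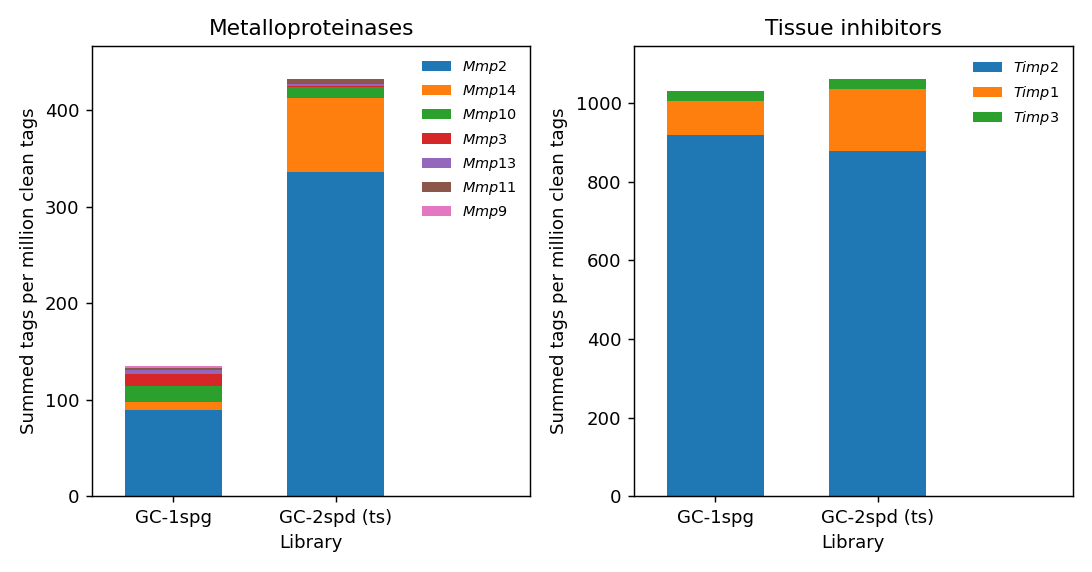
Summed levels (tags per 1000000 clean tags, axes from 0, unambiguous sense tags) of the 7 metalloproteinases (left) and the 3 inhibitors (right), stacked by gene, in 1 library of each line. The metalloproteinase bar rises from 135 to 432 TPM, most of it Mmp2 and Mmp14, while the inhibitor bars stand at 1033 and 1061 TPM.

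Both lines are labelled as male germ cells, and the genes described are ones known from stromal cells. Of 15 germ cell markers 2 were listed, at 2 to 4 tags in all, and Ddx4, Dazl, Stra8 and Sycp3 were not listed in either library. Of 11 fibroblast and stromal markers 8 were listed, with a summed level of 1310 TPM in GC-1spg against 1839 TPM in GC-2spd (ts). Most of that sum was S100a4 (764 and 1012 TPM) and Vim (194 and 613 TPM). The markers did not all differ in the same direction: 4 were called higher and 2 lower (11.7% and 7.84% of all genes). The lower ones were Dcn (710 and 2 tags) and Col6a1 (965 and 345 tags), while Postn and Pdgfrb were not listed in GC-1spg. All 6 peritubular myoid markers were listed in GC-2spd (ts), against 3 in GC-1spg. Their summed level (13.0 and 123 TPM) was mostly Acta2 (9.86 and 117 TPM). Myh11, Tagln and Actg2, which GC-1spg lacked, had 2 or 3 tags each, and Des was counted 11 and 4 times. In either library, 7 of 10 Sertoli cell markers (317 and 111 TPM) and 3 of 7 Leydig cell markers (0.789 and 40.8 TPM) were listed. Of the Leydig cell sum in GC-2spd (ts), Nr5a1, not listed in GC-1spg, gave 39.8 TPM. Of 10 macrophage and leukocyte markers, cells known for Mmp9, 1 was listed, at 4 and 3 tags, and of 8 endothelial markers 1, at 2 and 4 tags. The part of these marker levels in the differences of the metalloproteinase genes was not tested. In a bulk library, fewer cells of a type and less RNA per cell cannot be told apart.

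Of 17 other genes of the family, 10 were listed, with a median log2 ratio of -1.88, and 7 were not, Timp4 among them. That median rests largely on counts near the limit of detection, since 6 of the 10 were listed in GC-2spd (ts). The genes had 244 and 103 tags in all, of which Mmp8, taken up below, gave 141 and 74. Mmp23, which encodes a membrane-bound metalloproteinase, was the gene called, with 48 tags in GC-1spg against 4 in GC-2spd (ts) (log2 ratio -3.48, FDR 2.08e-09).

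Among 23 genes of activators and cell surface regulators of metalloproteinases, 21 were listed, 6 were called higher and 3 lower in GC-2spd (ts), and the median log2 ratio was 0.34. The share called among all genes was 19.5%, and nothing particular is read from the counts of calls in this and the further lists. Cd44, a hyaluronan receptor that can hold MMP14 and MMP9 at the cell surface, had 165 and 1464 tags (log2 ratio 3.25). Lrp1, an endocytic receptor that clears MMP2 and TIMP complexes, had 321 and 1074 tags (log2 ratio 1.84). Bsg, which encodes the metalloproteinase inducer basigin, had 645 and 1817 tags (log2 ratio 1.60). Furin, which encodes the proprotein convertase that cuts the MMP14 and MMP11 propeptides and is given here beside Mmp14 after its values were seen, had 48 and 63 tags and was not called (log2 ratio 0.49, FDR 0.155).

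Of 24 genes of matrix proteins that metalloproteinases cut, 22 were listed, 6 were called higher and 5 lower, with a median log2 ratio of 0.28. Col1a1, the fibrillar collagen chain cut by MMP14 and MMP13, had 10465 and 2425 tags (log2 ratio -2.01), and Col6a1 had 965 and 345 (log2 ratio -1.38). Col5a2 had 562 and 1931 tags (log2 ratio 1.88) and Bgn, the proteoglycan biglycan, 138 and 1080 (log2 ratio 3.07).

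All 17 transcription factors known from metalloproteinase promoters were listed, 4 were called higher and 3 lower, with a median log2 ratio of 0.20. Fosl2, a Fos family subunit of AP-1, had 1315 and 296 tags (log2 ratio -2.05). Cebpb had 637 and 165 tags (log2 ratio -1.85) and Ets2 494 and 122 tags (log2 ratio -1.92). Runx2, which is known to act at the Mmp13 promoter, had 99 and 213 tags (log2 ratio 1.21). AP-1 subunits thus did not all differ in the same direction, since Fos (16 and 58 tags, log2 ratio 1.96) and Fosb (15 and 43 tags, log2 ratio 1.62), named after their values were seen, were called higher in GC-2spd (ts).

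**Figure D5:**
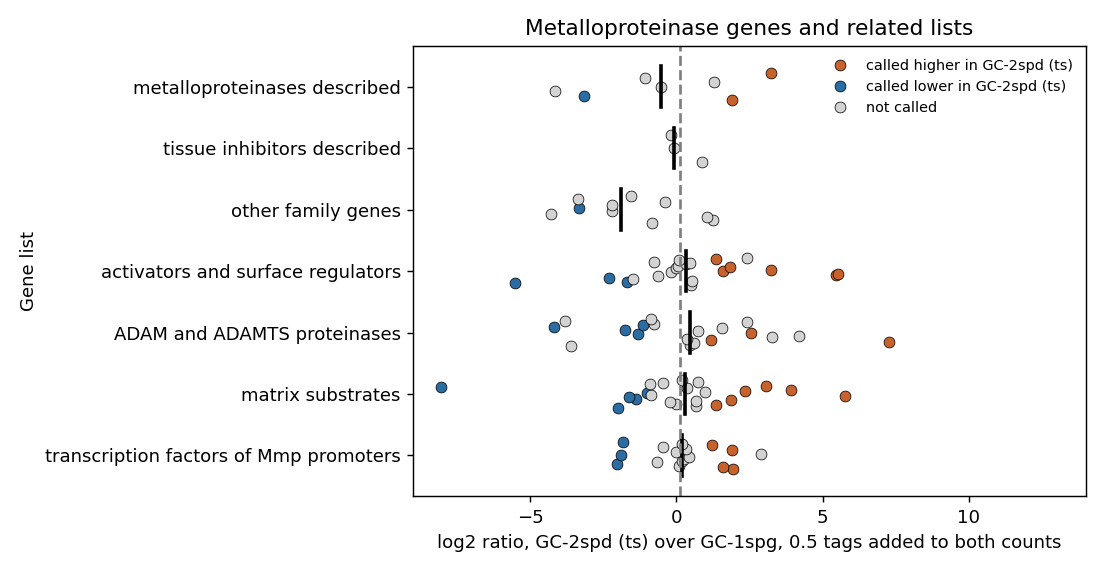
Each point is a gene listed in either library, at its log2 ratio, GC-2spd (ts) over GC-1spg, with 0.5 tags added to both counts; orange points were called higher, blue points lower and grey points were not called, the black bar is each list's median and the dashed line the median of all genes (0.13). Of the 7 metalloproteinases 2 are orange and 1 is blue, with a median of -0.52, and the 3 inhibitors are all grey, with a median of -0.07.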

How the data were processed

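The authors sequenced 1 NlaIII/MmeI tag library per line and deposited, for each distinct clean tag (tags with N, adaptors and single copies removed), its copy count and its TPM per the file headers. The counts were used, and the TPM were recomputed per 1000000 clean tags. Their own gene assignment to UniGene was not used here. The tags were matched to every CATG site of 141767 GENCODE M21 transcripts (GRCm38) with at most 1 mismatch, and the unambiguous sense tags were summed per gene, which leaves out tags shared between genes. Libraries were compared with a two-sided Audic-Claverie test with Benjamini-Hochberg adjustment over 14450 genes (0.01 TPM for a gene at 0; called at FDR at most 0.001 and a log2 ratio of at least 1 in size). Intervals are exact at 95% and, like the limits, cover counting error alone, since PCR copies are not independent molecules. For a gene not listed, the limit allowed 1 unlisted copy for each tag of the gene in the other library. The share of a gene's main tag was compared by Fisher's exact test where each library had 10 or more tags and 2 or more sites. The matching and the test were tested on simulated data. Python 3.11.15, numpy 2.4.6, pandas 2.3.3, scipy 1.17.1, R 4.3.3 and edgeR 4.0.16 were used; edgeR served for TMM scaling and for exact tests at an assumed variation (BCV), since no fit with an estimated spread is possible with 1 library per line. RNA had an average RIN of 8.9. All 10 genes are named, and of each further list up to 4 called genes with the most tags, except 1 that is not reported here. The genes and lists were chosen with earlier results of these data known.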

Additional observations from a re-analysis of the deposited data

Results flagged for a closer look

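Tags on the opposite strand of these genes are outside the comparisons above, except where both strands are said to be counted. The letters CATG read the same on both strands, so a site can give a tag in either direction. Antisense tags that matched no other gene exceeded the limit of 3 counts in both libraries for 6 of the 10 genes. Timp2 had the most, with 723 in GC-1spg against 252 in GC-2spd (ts) over 18 distinct tags, a log2 ratio of -1.42 (-1.63 to -1.21) beside -0.07 for its sense tags. Of these, 714 and 246 started at a CATG that also had a listed sense tag. Timp3 had 68 and 71 antisense tags, of which 15 and 10 were at such a site, and Timp1 had 36 and 30, all at such sites. Mmp11 had 16 and 42 antisense tags, more than its 9 and 21 sense tags, and with both strands counted it was called higher in GC-2spd (ts) (25 and 63 tags, log2 ratio 1.44, FDR 5.67e-05). Only 2 and 0 of these antisense tags started at a CATG with a listed sense tag. The call thus rests mainly on antisense tags read at other sites. Mmp2 had 12 and 48 antisense tags (log2 ratio 2.10, 1.17 to 3.15) and Mmp14 had 8 and 29 (log2 ratio 1.96, 0.79 to 3.30). The source of the antisense tags was not tested.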

How the results depend on the processing

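The 13 alternatives changed the calls of Timp3 (called with sense matches preferred and with the site nearest the 3′ end), Mmp14 (not called with the longest transcript) and Mmp11 (called with both strands counted), as given above. An assumed BCV of 0.4 lowered the genes called from 2817 to 244 and the calls among the 10 genes from 3 to 0 (FDR 0.279 for Mmp2, 0.0163 for Mmp14, 0.0457 for Mmp3). A BCV of 0.2 gave 1000 genes and kept 3 calls. TMM scaling moved the log2 ratio of every gene with tags in both libraries by -0.17. It moved the split of calls from 1684 higher and 1133 lower (59.8% higher) to 1292 and 1443 (47.2% higher), and it kept the 3 calls. The log2 ratio of the summed metalloproteinases was 1.68, and 1.51 with TMM and 1.48 with the longest transcript. That of the summed inhibitors was 0.04, and -0.56 with the site nearest the 3′ end, -0.37 with sense matches preferred, -0.13 with TMM, -0.074 with both strands counted and -0.044 when scaled to unambiguous sense tags. The share of the main tag differed for 2 genes (Mmp14 and Timp3), for 1 with the longest transcript, and for 3 with both strands counted, where Timp2 (adjusted p = 1.05e-07, Fisher's exact test) and Timp1 (0.00287) passed beside Mmp14 and Timp3, whose most copied tag was then an antisense one, did not (0.111). For Timp1 and Timp2 the copies of the main tag were unchanged there, and antisense tags were added to the total. Depth limits Mmp9, Mmp11, Mmp13 and Mmp3 most, whose counts in a library went down to between 0 and 10. No paired analysis was possible because each line had 1 library and the labels carry no replicate numbers.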

Other observations

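ADAM and ADAMTS proteinases, which share the metalloproteinase fold and are inhibited in part by TIMP3, were listed for 19 of 23 genes, of which 3 were called higher and 4 lower in GC-2spd (ts), with a median log2 ratio of 0.46. The aggrecanases Adamts1 (620 and 231 tags, log2 ratio -1.32) and Adamts5 (636 and 174 tags, log2 ratio -1.77) were lower in GC-2spd (ts), as was Adamts9 (139 and 58 tags, log2 ratio -1.16). Adam15, which encodes a membrane-bound member with a disintegrin domain, was higher (177 and 378 tags, log2 ratio 1.20).

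Mmp8, which encodes neutrophil collagenase and was singled out after its values were seen, had 141 tags in GC-1spg against 74 in GC-2spd (ts), but all 9 of its distinct tags held a run of 9 or more A.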
